A study of Mus musculus with 15 samples.

Results

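The genes of MHC-II peptide loading and turnover, *H2-DMa, H2-DMb1, H2-DMb2, H2-Oa, H2-Ob, Ctss, Lgmn, Ifi30, Cd83* and *March1*, were followed in RNA sequencing of A20 cells, a B-cell lymphoma line of BALB/c mice, and of 4 Foxp1 CRISPR clones made from it. These 10 genes were chosen by name for their roles in the pathway, out of 41388 genes in the count tables, and all 10 were among the 13904 genes tested. The A20 parental line was unedited and is labelled WT. Clones E6.1 and E6.2 carry a mutation in exon 6 of *Foxp1*, and clones E7.1 and E7.2 carry a mutation in exon 7. Each of the 5 lines gave 3 libraries from separate passages, 15 in all. No line received a further treatment. Every clone was grown from a single sorted cell after transfection of a plasmid encoding Cas9 and a guide, whereas the parental line had gone through neither the transfection nor the cloning, so the edit and the history of the clone cannot be told apart with 2 clones per exon.

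MHC-II molecules are assembled in the endoplasmic reticulum with the invariant chain Cd74, which fills the peptide groove until it is cut away in endosomes. Cathepsin S (*Ctss*) and asparagine endopeptidase (*Lgmn*) are endosomal proteases that take part in this cutting and in making peptides, and the thiol reductase GILT (*Ifi30*) opens the disulfide bonds of antigens. The chaperone H2-DM, a pair of an alpha chain (*H2-DMa*) and a beta chain (*H2-DMb1* or *H2-DMb2*), then exchanges the leftover Cd74 fragment for peptide, and H2-DO (*H2-Oa* and *H2-Ob*), found mainly in B cells, holds H2-DM back. At the cell surface MHC-II is removed after ubiquitination by the membrane ligase March1, and Cd83 opposes that ligase.

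*H2-DMb1* and *H2-DMb2* are neighbouring near copies, and the second coding exon, which codes for the outer domain, has the most differing bases of the 6 coding exons. Bases outside the coding exons were compared only as windows of whole transcripts, below. The exon is therefore shown for both genes (GENCODE M21, GRCm38, plus strand), with the 24 of 282 bases that differ in capitals. It lies at chr17:34155433-34155714 in *H2-DMb1* and at chr17:34147651-34147932 in *H2-DMb2*.
H2-DMb1: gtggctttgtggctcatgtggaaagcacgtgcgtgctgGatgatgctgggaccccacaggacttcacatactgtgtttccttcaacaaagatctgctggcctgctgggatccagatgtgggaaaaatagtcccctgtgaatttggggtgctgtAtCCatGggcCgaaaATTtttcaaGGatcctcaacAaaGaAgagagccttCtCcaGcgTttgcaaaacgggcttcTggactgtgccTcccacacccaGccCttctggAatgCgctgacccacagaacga
H2-DMb2: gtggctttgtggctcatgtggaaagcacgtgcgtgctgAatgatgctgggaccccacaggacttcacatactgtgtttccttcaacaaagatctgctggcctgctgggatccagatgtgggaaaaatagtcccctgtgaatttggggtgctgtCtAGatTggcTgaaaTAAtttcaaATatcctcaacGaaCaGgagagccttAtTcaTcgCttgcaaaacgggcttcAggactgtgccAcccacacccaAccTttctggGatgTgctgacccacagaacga
Over the 6 coding exons, 751 of 783 bases (95.9%) were identical. Only 2 of the 285 bases of the third coding exon differed, and the longest identical coding run was 221 bases. Of all 100-base windows of the *H2-DMb1* transcript, 13.7% occurred unchanged in a transcript of *H2-DMb2*. Read pairs that aligned at several places were left out of the deposited counts, so the levels of both genes are uncertain, and their sum is used below as a check.

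Class II promoters share a core element, the Y box, with the letters ATTGG. This was looked for on both strands of RefSeq promoters (GRCm38.p6, from 250 bases before to 50 bases after the start site), where 9 of the 10 genes matched (*March1* as *Marchf1*) and *Cd83* did not. The core was on the sense strand before the start site of *H2-DMb1* (61 bases before), *H2-DMb2* (90), *H2-Oa* (43) and *H2-Ob* (57), and was also in 1 of 2 promoters of *Lgmn* and 2 of 3 of *March1*. It was in neither the *Ctss* nor the *Ifi30* promoter. Both RefSeq start sites of *H2-DMa* lie at least 9664 bases before the first exon in the count tables, and 1 of these 2 windows held the core. A match is common, since 37.4% of all 32851 promoters of this length held it. The promoter windows are shown for the genes that differed most between the clone groups in opposite directions among the H2-DM and H2-DO genes, with the core in capitals, at chr17:34145099-34145168 for *H2-DMb2* and chr17:34238788-34238857 for *H2-Ob*, both on the plus strand.
H2-DMb2: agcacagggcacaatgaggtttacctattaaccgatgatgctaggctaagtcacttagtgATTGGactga
H2-Ob: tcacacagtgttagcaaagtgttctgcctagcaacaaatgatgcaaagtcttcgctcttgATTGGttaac
The window of *H2-DMb2* matched that of *H2-DMb1* at 60 of 70 bases and that of *H2-Ob* at 23. The forkhead core TAAACA was found in the promoter of *H2-Ob* and in 2 of 3 of *March1*, against 13.4% of all promoters. The pattern TTCNNNGAA was found in that of *H2-DMb2* and in 2 of 3 of *March1*, against 8.3%.

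Libraries held between 26328054 and 39181530 counts, and the level that 3 counts give, taken as the floor, was at most 0.118 TMM-normalized CPM, where CPM stands for counts scaled to the library total, far below every value of the 10 genes. The floor covers counting error only, whereas the 95% intervals below come from the edgeR fit and include the spread between libraries. *Foxp1* itself was at 102, 166 and 147 CPM in the parental libraries, 41.7, 64.2 and 64.3 in those of E7.1, 37.1, 39.6 and 52.3 in E7.2, 103, 99.5 and 109 in E6.1, and 109, 104 and 105 in E6.2. Its difference from the parental level passed the test in E7.1 (log2 fold change -1.29, adjusted p = 0.00688) and E7.2 (-1.69, adjusted p = 0.00116) and did not in E6.1 (-0.41, adjusted p = 0.765) or E6.2 (-0.39, adjusted p = 0.417), all from the quasi-likelihood F-test of edgeR, adjusted by Benjamini-Hochberg over 13904 genes, as is every adjusted p below unless another test is named. The call in E7.2 was lost when only the libraries compared were fitted (adjusted p = 0.0607). Without the third libraries of E6.2 and E7.2, both calls held, at -1.83 in E7.2 and -1.28 in E7.1 (adjusted p = 0.00148 and 0.00356). Replicate 3 of E6.2 and replicate 3 of E7.2 stood apart from the other libraries. Their deviations from their own lines' means correlated across genes with r = 0.426, the highest of 90 pairs of libraries from different lines, and the next pair reached 0.326. Results for the 10 genes, *Foxp1* and the counts of the gene lists between the exons are therefore given with and without both. B-cell markers summed to 809 to 1380 CPM over the 15 libraries, T-cell markers to at most 0.709 with *Cd3e* at 0, and natural killer cell markers to at most 3.93 with *Ncr1* and *Nkg7* at 0.

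None of the 10 genes passed the test in any single clone against parental cells or between the clones of an exon. The call was at an adjusted p under 0.05. Against parental cells 0 of 10 were called in E7.1, where 1.22% of all tested genes were, 0 of 10 in E7.2 (0.295%), 0 of 10 in E6.1 (0.324%) and 0 of 10 in E6.2 (1.17%). Between E6.2 and E6.1 it was 0 of 10 against 1.24%, and between E7.2 and E7.1 0 of 10 against 0.590%. At an unadjusted p under 0.05 from the same edgeR test, 2 of the 10 passed in E7.1 (background 20%), 0 in E7.2 (13.3%), 1 in E6.1 (6.71%) and 1 in E6.2 (13.1%), 1 between the E6 clones (12.9%) and 3 between the E7 clones (13.3%). DESeq2 called 0 of 10 in each of these 6 comparisons as well, with backgrounds of 8.32%, 1.83%, 1.11%, 2.86%, 3.22% and 2.06% in the same order. In the comparison of all E7 with all E6 libraries, 1 of the 10 was called, *H2-DMb2*, where 12.1% of all genes were. In the test for any difference among the 5 lines, it was again *H2-DMb2* alone, 1 of 10 against 6.28% of all genes. The share of these genes called was thus at or near the background in every comparison. DESeq2 called 3 of 10 between the exons, *H2-DMa, H2-DMb2* and *Ifi30*, against a background of 19.3%, and 3 of 10 for any difference, *H2-DMb2, H2-Ob* and *Ifi30*, against 22.5%.

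**Figure D1:**
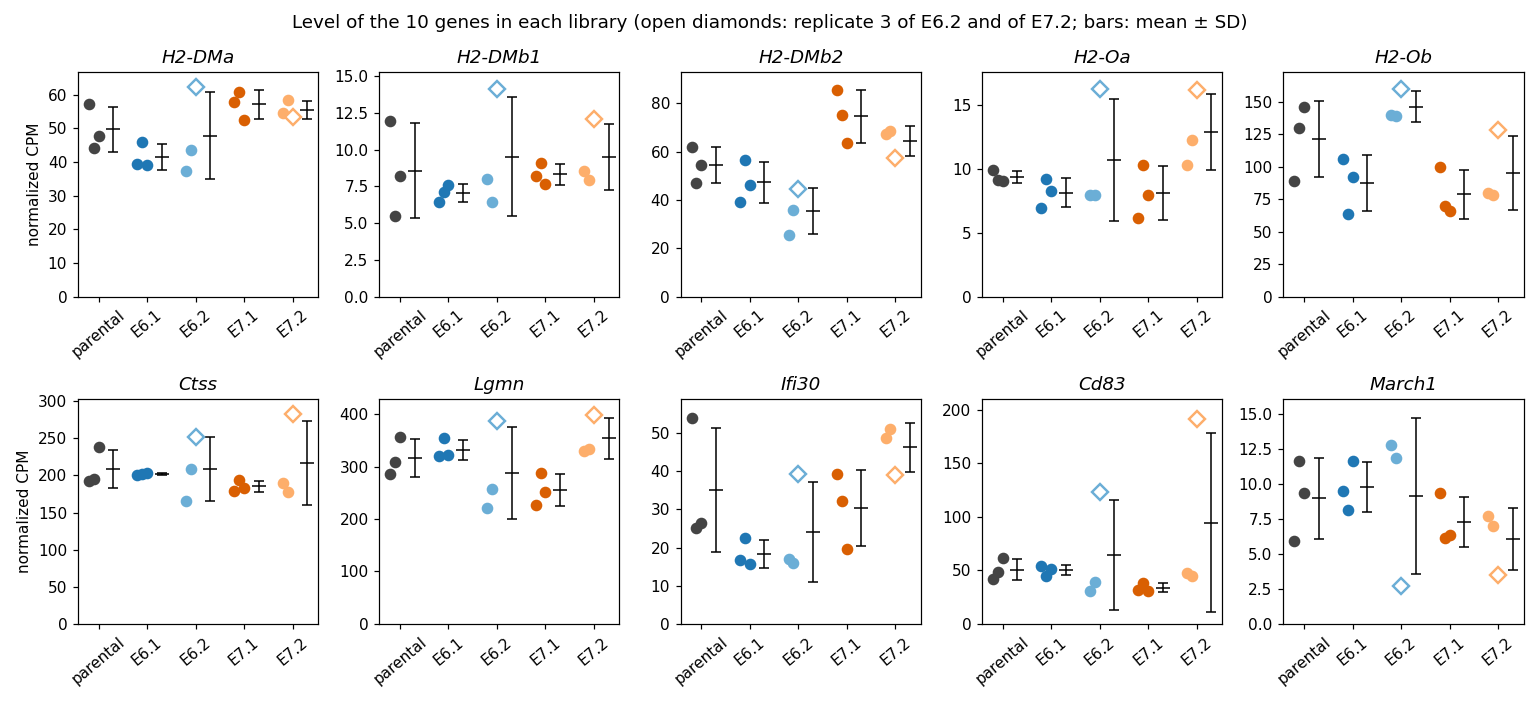
TMM-normalized CPM (vertical axes, from 0) of the 10 genes in each of the 15 libraries, by line; bars give the mean ± SD of 3 libraries and open diamonds mark the third libraries of E6.2 and E7.2. The E7 libraries of *H2-DMb2*, at 57.5 CPM or more, sit above the E6 libraries, at 56.3 or less, while the diamonds are the highest points of *Cd83* and the lowest of *March1*.

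*H2-DMb2* (ENSMUSG00000037548, chr17:34143307-34151553 of GRCm38, plus strand), which encodes a beta chain of H2-DM, was the gene that separated the E7 from the E6 clones. It was at 61.9, 47.2 and 54.5 CPM in the parental libraries, 85.3, 75.1 and 63.5 in those of E7.1, 67.1, 68.6 and 57.5 in E7.2, 39.3, 56.3 and 46.2 in E6.1, and 25.4, 36.0 and 44.4 in E6.2. All 6 E7 libraries lay above all 6 E6 libraries, a separation that 3.55% of all tested genes showed in either direction, and the parental libraries fell across the gap. The difference was 0.76 on the log2 scale (SE 0.14, 95% interval 0.46 to 1.06), a 1.70-fold higher level in the E7 clones, with adjusted p = 0.00654. At an adjusted p under 0.05 it was called in 9 of 9 alternative fits, of which 1 summed it with *H2-DMb1*, with adjusted p from 1.50e-05 to 0.0119, and in 15 of 15 fits that left out a library, with adjusted p from 0.00173 to 0.0259. A call that also required a 2-fold difference would leave it out. Libraries of a clone share that clone, and there are only 2 clones a side. The p values of all these fits measure the spread between passages of a line and do not include that between clones.

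Against parental cells, neither direction of *H2-DMb2* passed the test in a single clone. E6.2 was at -0.63 (SE 0.20, adjusted p = 0.196) and E6.1 at -0.21 (SE 0.20, adjusted p = 0.963), while E7.1 was at 0.45 (SE 0.20, adjusted p = 0.215) and E7.2 at 0.24 (SE 0.20, adjusted p = 0.584). Without the libraries that stood apart, E6.2 was called at -0.81 (SE 0.19, adjusted p = 0.0424), with adjusted p from 0.0424 to 0.667 over the alternatives. The test of any difference among the 5 lines gave *H2-DMb2* an adjusted p of 0.0282 and was the less stable call. It was lost without E6.1 replicate 3 (adjusted p = 0.0615), E6.2 replicate 2 (0.0562), E7.1 replicate 1 (0.0835), E7.1 replicate 2 (0.0675), E7.2 replicate 1 (0.0510) or E7.2 replicate 2 (0.0526), and when both beta chain genes were summed (0.0548).

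*H2-DMb1* (ENSMUSG00000079547, chr17:34153072-34160230), the other beta chain gene, was much lower. It ranged from 5.50 to 12.0 CPM in parental cells, 7.70 to 9.12 in E7.1, 7.92 to 12.1 in E7.2, 6.41 to 7.63 in E6.1 and 6.47 to 14.1 in E6.2, so that the lines overlapped. Between E7 and E6 clones it differed by 0.12 on the log2 scale (SE 0.22, 95% interval -0.34 to 0.58, adjusted p = 0.748). *H2-DMb2* held 86.7% ± 2.89 (SD, n = 3) of the counts of the pair in parental cells, 89.9% ± 1.18 in E7.1, 87.0% ± 3.81 in E7.2, 86.9% ± 1.68 in E6.1 and 78.9% ± 5.09 in E6.2, lowest in the E6.2 clone. With both genes counted as 1, the E7 clones were higher by 0.67 on the log2 scale (adjusted p = 0.0119).

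*H2-DMa* (ENSMUSG00000037649, chr17:34135182-34139101), the single alpha chain gene of H2-DM, was at 57.2, 44.1 and 47.9 CPM in parental cells, 58.0, 61.0 and 52.4 in those of E7.1, 54.7, 58.6 and 53.4 in E7.2, 39.4, 45.9 and 39.2 in E6.1, and 37.5, 43.7 and 62.3 in E6.2. Every E7 library was above every E6 library except E6.2 replicate 3, the highest of all 15. The E7 clones were at 0.34 against the E6 clones on the log2 scale (SE 0.12, adjusted p = 0.0743), which did not pass the test. Without E6.2 replicate 3 alone, its adjusted p was 0.00504, and without both libraries that stood apart the difference was 0.48 (SE 0.09, adjusted p = 0.00324), against adjusted p values up to 0.126 over the alternatives. No clone differed from parental cells by more than 0.26 in either direction.

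Neither H2-DO gene was called between the exons with all libraries. *H2-Ob* (ENSMUSG00000041538, chr17:34238903-34245907), the beta chain, was at 89.2, 130 and 146 CPM in parental cells, 100, 70.0 and 66.0 in those of E7.1, 79.9, 78.3 and 128 in E7.2, 106, 63.6 and 92.4 in E6.1, and 140, 139 and 160 in E6.2. The E6.2 libraries gave 0.74 on the log2 scale against E6.1 (SE 0.25, adjusted p = 0.209), and the E7.1 libraries gave -0.63 against parental cells (SE 0.25, adjusted p = 0.175). Neither passed the test. Between the exons *H2-Ob* was at -0.38 (SE 0.17, adjusted p = 0.157), the opposite sign to *H2-DMb2*, and it was called only without the libraries that stood apart (-0.48, adjusted p = 0.0408, range 0.0408 to 0.196 over the alternatives) or without E7.2 replicate 3 alone (adjusted p = 0.0411).

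*H2-Oa* (ENSMUSG00000024334, chr17:34092340-34095234), the alpha chain, was the lower H2-DO gene. It was at 9.32 ± 0.469 CPM in parental cells (SD, n = 3 here and for the clones), 8.11 ± 2.11 in E7.1, 12.9 ± 2.97 in E7.2, 8.13 ± 1.16 in E6.1 and 10.7 ± 4.77 in E6.2. The wide spread of E6.2 came from replicate 3, at 16.2 CPM beside 8.0 in both other libraries. E7.2 against E7.1 gave its widest difference, 0.67 on the log2 scale (SE 0.28, adjusted p = 0.342). Of its 1314 exonic bases, 200 also belong to *BC051537*, and pairs that fell there were not counted.

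The endosomal proteases were the most abundant and among the steadiest of the 10 genes. *Ctss* (ENSMUSG00000038642, chr3:95526786-95556403), which makes a late endosomal cut in Cd74, was at 209 ± 25.6 CPM in parental cells, 185 ± 7.82 in E7.1, 217 ± 57.1 in E7.2, 202 ± 1.36 in E6.1 and 208 ± 43.0 in E6.2. Its difference from parental cells was between -0.17 and 0.06 on the log2 scale in the 4 clones, and the widest 95% interval, that of E7.1, ran from -0.56 to 0.22. *Lgmn* (ENSMUSG00000021190, chr12:102394084-102439813, minus strand) was at 317 ± 36.0 CPM in parental cells, 255 ± 30.5 in E7.1, 354 ± 38.7 in E7.2, 332 ± 19.0 in E6.1 and 288 ± 87.6 in E6.2. *Lgmn* in E7.2 was at 0.47 on the log2 scale against E7.1 (SE 0.19, adjusted p = 0.324), which did not pass the test. For both genes the E7 and E6 clones were close, with differences of -0.03 (95% interval -0.31 to 0.24) for *Ctss* and -0.04 (-0.33 to 0.24) for *Lgmn*.

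*Ifi30* (ENSMUSG00000031838, chr8:70762774-70766663, minus strand), which encodes the reductase, had the largest estimated difference between the exons. It was at 54.0, 25.0 and 26.6 CPM in parental cells, 39.3, 32.1 and 19.6 in those of E7.1, 48.9, 51.1 and 39.0 in E7.2, 16.6, 22.5 and 15.8 in E6.1, and 17.1, 16.0 and 39.4 in E6.2. The lowest levels were in E6.1 and in replicates 1 and 2 of E6.2, and the groups overlapped through E6.2 replicate 3 and E7.1 replicate 3. The E7 clones were at 0.83 against the E6 clones on the log2 scale (SE 0.26, adjusted p = 0.0516), just short of the call, and E6.1 was at -0.94 against parental cells (SE 0.37, adjusted p = 0.595). *Ifi30* was called between the exons in 7 of 8 alternative fits, with adjusted p from 0.00375 to 0.0745. Without the libraries that stood apart, the difference was 1.17 (SE 0.23, adjusted p = 0.00375), and leaving out parental replicate 1 (adjusted p = 0.0273), E6.2 replicate 3 (0.00533), E7.1 replicate 3 (0.0475) or E7.2 replicate 3 (0.0378) alone also led to a call.

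With all libraries, the genes of MHC-II turnover varied most within a line. This rested on the third libraries of E6.2 and E7.2. Without them, the SE in E6.1 against parental cells fell from 0.53 to 0.15 for *Cd83*. For *March1* it fell from 0.45 to 0.24. Both were then below the SE of *Ifi30* (0.29). *Cd83* (ENSMUSG00000015396, chr13:43785107-43803130) was at 42.2, 48.2 and 61.2 CPM in parental cells, 31.8, 38.4 and 30.6 in those of E7.1, 47.3, 44.8 and 191 in E7.2, 54.2, 44.7 and 51.2 in E6.1, and 30.7, 39.2 and 123 in E6.2. The libraries that stood apart were far above the other 13, whose highest value was 61.2. E7.2 against E7.1 gave 1.49 on the log2 scale (SE 0.54, adjusted p = 0.279), and against parental cells E7.2 was at 0.90 with all libraries and at -0.11 without both. Without them, E7.1 against parental cells was called (-0.58, SE 0.15, adjusted p = 0.0233, range 0.0233 to 0.638 over the alternatives), while with all libraries it was at -0.59 (SE 0.53, adjusted p = 0.569).

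*March1* (ENSMUSG00000036469, chr8:65617900-66471637), the ligase, was low, with 90 to 467 counts per library. It was at 5.93, 11.7 and 9.40 CPM in parental cells, 9.35, 6.15 and 6.38 in those of E7.1, 7.71, 7.01 and 3.53 in E7.2, 9.55, 8.18 and 11.7 in E6.1, and 12.8, 11.9 and 2.71 in E6.2. Here the libraries that stood apart were the lowest of the 15, in contrast to *Cd83*. The E7 clones were at -0.50 against the E6 clones (SE 0.32, adjusted p = 0.307), called without E6.2 replicate 3 (adjusted p = 0.0310) and without both libraries (-0.58, SE 0.19, adjusted p = 0.0306, range 0.0306 to 0.348 over the alternatives). Of its 7146 exonic bases, 546 are shared with *Gm15354*.

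**Figure D2:**
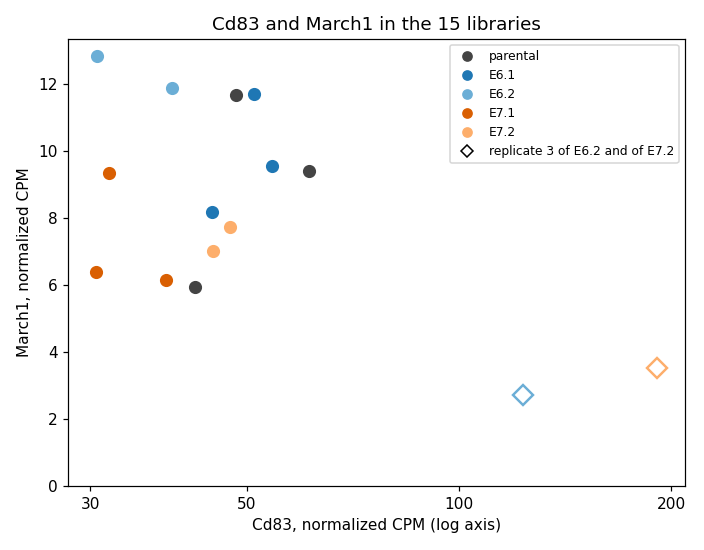
TMM-normalized CPM of *March1* (vertical axis, from 0) against *Cd83* (horizontal log axis) in the 15 libraries, colored by line. The open diamonds, the third libraries of E6.2 and E7.2, lie at 123 and 191 CPM of *Cd83* with 2.71 and 3.53 CPM of *March1*, apart from the other 13 libraries.

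These libraries set the spread of most of the 10 genes. For 6 of the 10, both lay outside the range of the other 13 libraries, a position that 26.0% of all tested genes had. They were above it for *H2-DMb1, H2-Oa, Ctss, Lgmn* and *Cd83* and below it for *March1*. For *H2-DMa, H2-DMb2, H2-Ob* and *Ifi30* at least 1 was inside. Among the class II chains, 4 of 6 genes had both outside. Above were *H2-Aa* (1241 and 1194 CPM, against 566 to 906 in the others), *Cd74* (2949 and 3205, against 1975 to 2730) and *H2-Ea-ps*. *H2-Eb2* was below. The name *H2-Ea-ps* marks a pseudogene in the C57BL/6J reference, whereas A20 is of BALB/c. The transactivator *Ciita* was below the other libraries in both, at 60.1 and 38.3 CPM against 67.3 to 82.1. Of 11 endosomal proteases tested 5 were above, among them *Ctsl* at 8.57 and 11.0 CPM, where the others reached 5.32. What set these libraries apart was not tested.

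Without both libraries more genes passed throughout. Against parental cells 1 of 10 was then called in E7.1 (background 15.9%), 0 in E7.2 (1.80%), 0 in E6.1 (1.07%) and 1 in E6.2 (2.32%), with 0 between the E6 clones (3.60%) and 0 between the E7 clones (0.849%). Between E7 and E6 clones 5 of 10 were called, where 35.1% of all genes were. These were *H2-DMa, H2-DMb2* and *Ifi30*, higher in the E7 clones, and *H2-Ob* and *March1*, lower. For any difference among the lines it was 6 of 10, *H2-DMa, H2-DMb2, H2-Ob, Lgmn, Ifi30* and *Cd83*, against 30.1%. In this fit the E6.2 and E7.2 clones have 2 libraries each.

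**Figure D3:**
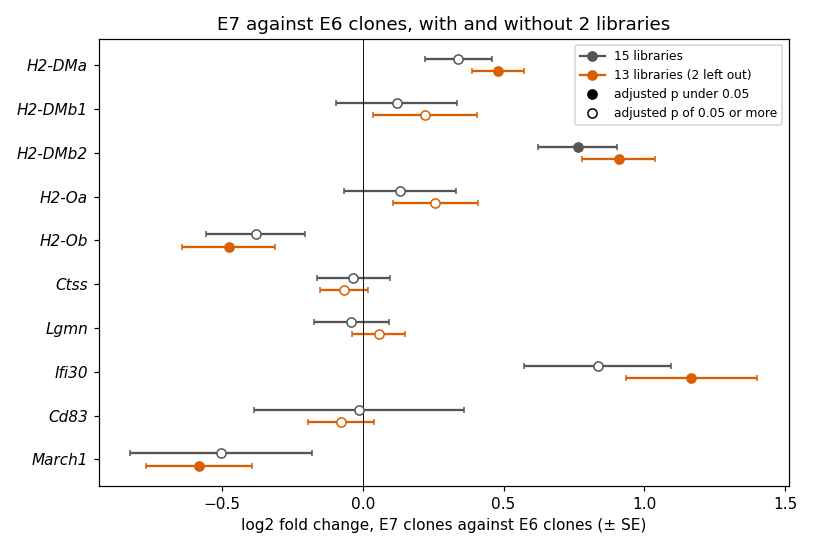
Log2 fold change of the E7 against the E6 clones (horizontal axis, ± SE) for the 10 genes with all 15 libraries and with 13, leaving out the third libraries of E6.2 and E7.2; filled points have an adjusted p under 0.05. With 15 libraries *H2-DMb2* (0.76) is the filled point, and with 13 it is joined by *H2-DMa* (0.48), *H2-Ob* (-0.48), *Ifi30* (1.17) and *March1* (-0.58).

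**Figure D4:**
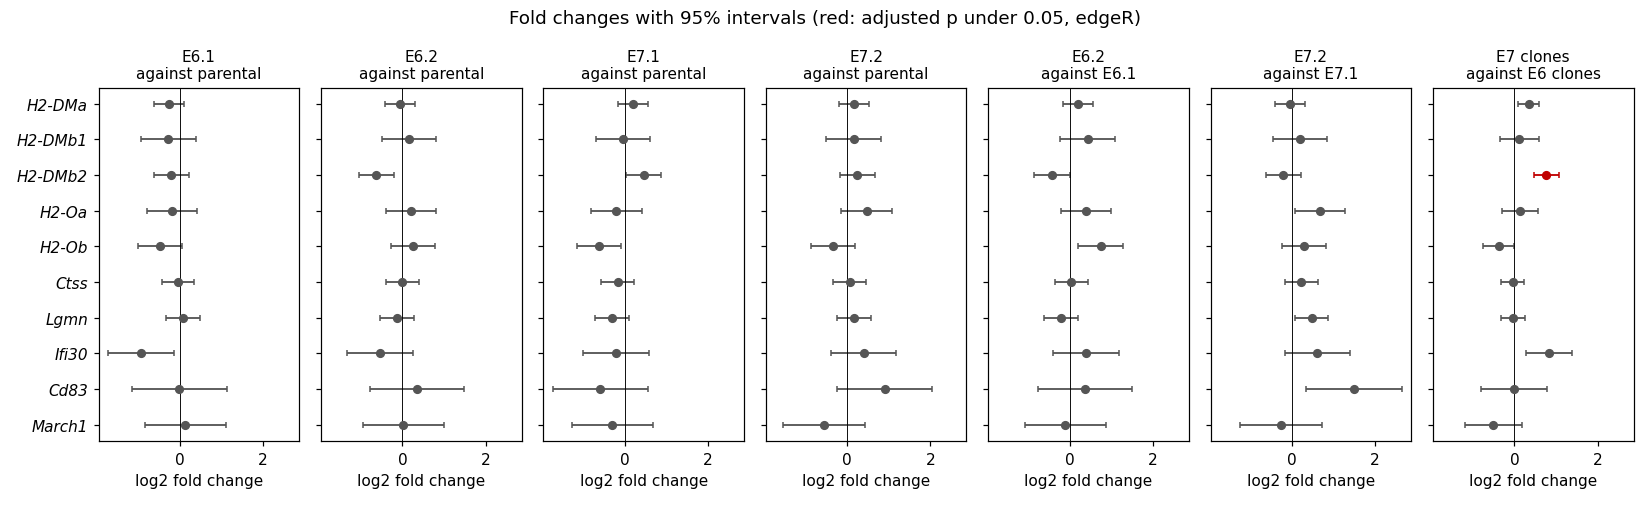
Log2 fold changes (horizontal axes) of the 10 genes with 95% intervals from edgeR in the 7 pairwise comparisons, red where the adjusted p was under 0.05. The only red point is *H2-DMb2* between the E7 and E6 clones (0.76, interval 0.46 to 1.06), and the intervals of *Cd83* and *March1* are the widest.

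On balance the genes moved little. The median log2 fold change of the 10 against parental cells was -0.21 in E7.1 (all tested genes -0.02), 0.16 in E7.2 (0.00), -0.20 in E6.1 (0.00) and 0.01 in E6.2 (0.06), with 2, 8, 2 and 5 of the 10 positive. It was 0.28 between the E6 clones (all genes 0.04), 0.25 between the E7 clones (0.00) and 0.05 between the exons (-0.03). The comparisons with parental cells share the parental libraries. The order of the lines also differed from gene to gene. *H2-DMb2* ran E6.2, E6.1, parental, E7.2, E7.1 from low to high, and the steps from E6.1 to parental and from E7.2 to E7.1 were smaller than the larger SD of the neighbours. For *H2-DMa*, E6.1, E6.2, parental, E7.2, E7.1, and for *Ifi30*, E6.1, E6.2, E7.1, parental, E7.2, no neighbours differed by more than their spread. The E7.1 clone was lowest for *H2-Oa, H2-Ob, Ctss, Lgmn* and *Cd83*, and of these gaps to the next line those of *Ctss* and *Cd83* exceeded the spread.

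Levels between genes were compared per kilobase of exonic length (RPKM of the TMM-normalized libraries). In parental cells *Ctss* was highest at 154 ± 18.8 RPKM (SD, n = 3 here and below), followed by *Lgmn* at 136 ± 15.5, which is within the spread. *H2-Ob* at 38.6 ± 9.31, *Ifi30* at 35.9 ± 16.6, *H2-DMb2* at 31.9 ± 4.29, *H2-DMa* at 30.3 ± 4.12 and *Cd83* at 23.6 ± 4.52 formed a middle group in which no neighbours differed beyond their spread except *H2-DMa* and *Cd83*. *H2-Oa* at 7.09 ± 0.357 and *H2-DMb1* at 5.77 ± 2.19 were lower, and *March1* was lowest at 1.26 ± 0.405. The alpha and main beta chain genes of H2-DM were thus at like levels, whereas the alpha chain gene of H2-DO was well below its beta chain gene. In E6.2 *H2-Ob* reached 46.4 ± 3.78 RPKM beside 20.6 ± 5.55 for *H2-DMb2*, and in E7.1 this order was turned, with 25.0 ± 5.92 for *H2-Ob* and 43.7 ± 6.38 for *H2-DMb2*.

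The MHC-II chains themselves were not called by edgeR in any pairwise comparison with all libraries. With all libraries, 0 of 6 (*H2-Aa, H2-Ab1, H2-Eb1, H2-Eb2, Cd74* and *H2-Ea-ps*) passed the test in each of the 7 pairwise comparisons and at an unadjusted p under 0.05 at most 1 did. DESeq2 called 1 of 6 in each E6.2 comparison, against parental cells (background 2.86%) and against E6.1 (3.22%). All 6 had a positive log2 fold change in the E7 against the E6 clones, with a median of 0.22 (all genes -0.03). *H2-Eb1*, a beta chain gene of I-E, ranged from 104 to 183 CPM in parental cells, 171 to 219 in E7.1, 180 to 200 in E7.2, 119 to 154 in E6.1 and 86.9 to 245 in E6.2 (log2 difference between the exons 0.49, SE 0.22, adjusted p = 0.159). Without the libraries that stood apart, 3 of the 6 were called between the exons (background 35.1%), *H2-Aa* (0.35, adjusted p = 0.0190), *H2-Ab1* (0.45, adjusted p = 0.0112) and *H2-Eb1* (0.80, adjusted p = 0.00288), all higher in the E7 clones. In the same fit *H2-Eb2*, a further beta chain gene, was lower in E6.2 than in parental cells (-0.58, adjusted p = 0.0312) and than in E6.1 (-0.61, adjusted p = 0.0220), where the backgrounds were 2.32% and 3.60%.

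Among the other genes of the pathway, at most 3 of a list were called between the exons with all libraries, and more without the libraries that stood apart. Of 8 genes of class II transcription, 1 was called between the exons, the factor gene *Creb1*, lower in the E7 clones (-0.59, SE 0.18, adjusted p = 0.0483). The transactivator gene *Ciita* was at -0.16 (adjusted p = 0.452). Of 11 endosomal proteases tested from a list of 13, *Ctse*, the gene of cathepsin E, was lower in the E7 clones (-0.76, SE 0.17, adjusted p = 0.0173), at 55.5 ± 2.53 CPM in E7.1 and 119 ± 32.5 in E7.2 beside 153 ± 28.0 in E6.1 and 125 ± 15.7 in E6.2. *Sppl2a*, the intramembrane protease that cuts the last stub of Cd74, fell in E6.2 against parental cells by 0.82 on the log2 scale (SE 0.17, adjusted p = 0.0357), from 325 ± 36.0 to 185 ± 47.9 CPM, a call lost with only the 6 libraries compared (adjusted p = 0.439). None of 3 tested protease inhibitors of 7 listed passed with all libraries. Between the exons 1 was at an unadjusted p under 0.05 and DESeq2 called 0 (DESeq2 background 19.3%).

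Of 6 tested membrane ligase and interleukin 10 genes of 8 listed, 2 passed between the exons. *Il10*, whose product raises March1 in myeloid cells, was higher in the E7 clones (0.80, SE 0.24, adjusted p = 0.0466), and the receptor chain gene *Il10rb* was lower (-0.61, SE 0.18, adjusted p = 0.0387). Of 17 endosome and lysosome genes tested of 19, 3 passed between the exons. The vesicle transport gene *Rab27a* was higher in the E7 clones (0.54, SE 0.14, adjusted p = 0.0300), and the lysosomal channel genes *Mcoln1* (-0.58, SE 0.14, adjusted p = 0.0205) and *Mcoln2* (-0.65, SE 0.18, adjusted p = 0.0345) were lower. These shares stand beside the 12.1% of all genes called in that comparison. Most of these calls were lost on leaving out any of several libraries, rather than 1 particular library. All of these calls held without both libraries that stood apart, as given below. Of 15 fits that each left out a library, *Creb1* was called in 3 (adjusted p up to 0.120), *Il10* in 5 (up to 0.114), *Il10rb* in 6 (up to 0.0960), *Mcoln2* in 6 (up to 0.0897), *Rab27a* in 8 (up to 0.0897), *Mcoln1* in 11 (up to 0.0607) and *Ctse* in 13 (up to 0.0569, lost without E6.1 replicate 1 or E7.2 replicate 2), and *Sppl2a* in E6.2 was called in 3 (up to 0.198).

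Without the libraries that stood apart, between the exons 2 of 8 class II transcription genes were called, *Creb1* (-0.64, adjusted p = 0.00245) and the NF-Y subunit gene *Nfyb* (-0.28, adjusted p = 0.0170). Of the 11 proteases it was 6, with *Ctsb*, *Ctsc* and *Sppl2a* higher in the E7 clones and *Ctse* (-0.93, adjusted p = 0.00251), *Ctso* and *Ctsw* lower. *Ctsw* (-1.90, adjusted p = 0.0349) lay near the floor, at 0 to 1.73 CPM with a median of 0.181 in the libraries kept. For *Ctsw* the E6.2 clone stood furthest from the parental level, at 3.11 (SE 0.86). E6.1 gave 1.30, E7.1 gave 0.51 and E7.2 gave 0.09. Of the 3 protease inhibitors 2 were called, *Cst3* (0.24, adjusted p = 0.0305) and *Cst7* (0.98, adjusted p = 0.0193), both higher. *Cst7* was low, at 0.272 to 1.73 CPM in the libraries kept, and its clones did not split by exon. Relative to the parental level, E7.2 gave 1.31, E6.1 gave 0.62, E7.1 gave 0.44 and E6.2 gave -0.83. Of the 6 ligase and interleukin 10 genes 3 were called, *Il10* (0.82, adjusted p = 0.0403) higher and *Il10rb* (-0.67, adjusted p = 0.0182) and *March3* (-0.76, adjusted p = 0.0495) lower. *March3* was low, at 0.509 to 3.41 CPM in the libraries kept. Against parental cells *March3* was at -1.72 in E7.1, beside -0.61 in E7.2, -0.42 in E6.1 and -0.38 in E6.2. Of the 17 endosome and lysosome genes 7 were called between the exons, with *Rab27a* (0.65, adjusted p = 0.00385) higher and *Lamp2*, *Arl14ep*, *Tfe3*, *Mcoln1* (-0.59, adjusted p = 0.00361), *Mcoln2* (-0.88, adjusted p = 0.00202) and *Atp6v0d1* lower. These counts stand beside the 35.1% of all genes called in this fit. *Sppl2a* in E6.2 against parental cells was at -0.61 (adjusted p = 0.0160).

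Some markers of B-cell and plasma cell state also differed between the exons, a comparison in which 12.1% of all genes were called. Of 5 tested plasma cell genes, 3 were higher in the E7 than in the E6 clones, *Irf4* (1.02, adjusted p = 0.00472), *Prdm1* (1.33, adjusted p = 0.0190) and *Sdc1* (1.46, adjusted p = 0.0246), and the summed level of the 6 listed was 1025 to 1537 CPM in E6.2 and 1591 to 2367 in the other lines. Of 8 B-cell genes 2 were called, both higher, *Cd79a* (1.08, adjusted p = 0.00370) and *Ms4a1* (0.44, adjusted p = 0.0407), with sums of 809 to 1002 CPM in E6.2 and 1021 to 1120 in E6.1, beside 1094 to 1380 in the E7 clones. Of the other 6 B-cell genes, 2 had a negative log2 fold change. Of 4 tested macrophage and dendritic cell genes of 9, 0 were called, with sums of 61.7 to 105 CPM in E6.2 and 65.1 to 76.6 in E6.1, beside 82.0 to 83.4 in E7.2 and 75.0 to 94.4 in E7.1. Of these genes 1 passed at an unadjusted p under 0.05 and 1 by DESeq2 (DESeq2 background 19.3%). Of 2 tested natural killer cell genes 1, *Klrb1c*, was lower in the E7 clones (-1.21, adjusted p = 0.0395), the tested fibroblast gene *Dcn* was higher at sums of at most 0.641 CPM (adjusted p = 0.00474), and the tested T-cell gene was not called. Without the libraries that stood apart, 5 of 5 plasma cell genes were higher in the E7 clones, 3 of 8 B-cell genes were higher (*Cd79a*, *Ms4a1* and *Pax5*) and 1 was lower (*Blk*), with 0 of 4 macrophage and dendritic cell genes called, beside 35.1% of all genes, and the calls of *Klrb1c* and *Dcn* held (adjusted p = 0.00912 and 0.00367). Against parental cells with all libraries, 2 of the 5 plasma cell genes were called in E6.2, both lower (background 1.17%). In each other clone 0 of 5 were called. Against E6.1, 1 of 5 was lower in E6.2 (background 1.24%). In bulk RNA, fewer cells of a state and less RNA per cell cannot be told apart. The part of these markers in the difference of *H2-DMb2* was not tested.

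The genes whose pattern over the 15 libraries was most like that of *H2-DMb2* were *Fam107b* (Pearson r of log2 CPM 0.960), *Bdh1* (0.953) and *Hps6* (0.948). They were picked for this likeness among 13904 genes, and the libraries of a line share that line, so these are descriptions. *Fam107b* ranged from 65.0 to 279 CPM, *Bdh1* from 6.14 to 15.2 and *Hps6* from 1.77 to 5.40.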

How the data were processed

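Gene expression was measured by RNA sequencing in mouse A20 parental cells and 4 Foxp1 CRISPR clones, each with 3 libraries from separate passages, so that p values measure the spread between passages of a line. The authors deposited raw counts of read pairs per gene for each library. Per the file headers and the submitters' processing notes, reads were aligned with HISAT (version not given in the sources used here) and counted with featureCounts 1.5.0 against genes of GRCm38 plus 92 spike-ins, whose total was 0. Strand was not used. Multi-mapped pairs, and pairs on more than 1 gene, were not counted. GRCm38 is of C57BL/6J, whereas A20 is of BALB/c, and the effect of this on the polymorphic H2 genes was not tested.

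Of 41388 genes, 13904 passed filterByExpr and were fitted with edgeR 4.0.16 in R 4.3.3 (TMM normalization, the quasi-likelihood test glmQLFTest, the line as the only factor, all 15 libraries), and p values were adjusted by Benjamini-Hochberg within each of 8 comparisons. Calls required an adjusted p under 0.05, whatever the fold. DESeq2 1.42.0 and other alternatives are given in the closing section. The method was tested on simulated data. CPM was computed from the TMM-normalized library totals, and correlations used a prior count of 2. Total counts per library were 26328054 to 39181530, and the errors of the fit include the spread between libraries. No libraries were copies, since the lowest chi-square statistic per gene between libraries of a line was 32.8.

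The genes and lists were chosen with earlier results of these data known. The text names the 10 genes, *Foxp1*, list genes called in at least 1 comparison, and the 3 genes most like each called gene over the 15 libraries. Other list and marker genes were named after their values were seen. Some marker genes are not reported here.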

Additional observations from a re-analysis of the deposited data

Results flagged for a closer look

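Of the 10 genes, *H2-DMb2* drew attention because the E7 and E6 clones differed in a direct test between them (log2 fold change 0.76, adjusted p = 0.00654 from edgeR). The p value measures the spread between passages of a line and not that between clones. An effect of the exon therefore cannot be told apart from differences between clones. The E7 clones were above and the E6 clones below the parental mean.

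Other genes of the fixed lists differed between the exons in the same test. They were *Creb1* (-0.59, adjusted p = 0.0483), *Ctse* (-0.76, adjusted p = 0.0173), *Il10* (0.80, adjusted p = 0.0466), *Il10rb* (-0.61, adjusted p = 0.0387), *Rab27a* (0.54, adjusted p = 0.0300), *Mcoln1* (-0.58, adjusted p = 0.0205) and *Mcoln2* (-0.65, adjusted p = 0.0345). As 12.1% of all tested genes were called in this comparison, these values are given without an explanation. Groups of 3 libraries were too small for a test of outlying libraries.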

How the results depend on the processing

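In the comparisons of single clones, the count of the 10 genes called stayed at 0 in every fit but that without the third libraries of E6.2 and E7.2, which gave 1 in E6.2 and 1 in E7.1 against parental cells. Between E7 and E6 clones the count of 1 became 2 with DESeq2's size factors, without a filter on low counts, with edgeR's likelihood ratio test, with legacy = FALSE and with only the libraries compared, 3 with DESeq2, 5 without both libraries and 0 with an added 2-fold threshold, under which *H2-DMb2* was no longer called. For any difference among the lines it became 2 without a filter, 3 with DESeq2, 3 with the likelihood ratio test and 6 without both libraries. The call of *Foxp1* in E7.2 against parental cells was lost with only the libraries compared (adjusted p = 0.0607). The causes were not tested. Leaving out a library gave 1 to 4 between the exons and 0 to 4 for any difference. The highest counts came without E6.2 replicate 3 (4 and 4). Without parental replicate 1 the count between the exons was 3, without E7.1 replicate 3 it was 2 and without E7.2 replicate 3 it was 3. For any difference it was 0 without E6.1 replicate 3, E6.2 replicate 2, E7.1 replicates 1 or 2, or E7.2 replicates 1 or 2, and 2 without E7.2 replicate 3. Levels per kilobase are another quantity and were given in the report only.

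Libraries with the same replicate number deviated together slightly more than others (mean r 0.0531, against -0.0249 for other numbers). The r was over 0.1 in 11 of 30 pairs with the same number. The highest, 0.426, was that of E6.2 replicate 3 and E7.2 replicate 3. These values do not decide whether the numbers pair the libraries. A replicate block left the counts called at 1 between the exons and 1 for any difference and turned the sign of values near 0, *Cd83* in E6.1 (0.042), *March1* in E6.2 (-0.11) and *H2-DMb1* in E7.1 (0.0014).

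Other signs that turned were of log2 fold changes that were not called. With DESeq2's size factors these were *Ctss* in E6.2 (0.013) and *Cd83* between the exons (0.0022), with DESeq2 the same (0.013 and 0.0029), without a filter *March1* in E6.2 (-0.026), and with only the libraries compared *Cd83* between the exons (0.00032). With both beta chain genes summed, the value in place of *H2-DMb1* was -0.49 in E6.2, 0.40 in E7.1, -0.28 between the E6 clones and -0.17 between the E7 clones. Without both libraries, E6.2 turned for *H2-DMb1* (-0.22), *H2-Oa* (-0.21) and *Cd83* (-0.51), and E7.2 for *H2-DMb1* (-0.033), *Ctss* (-0.16) and *Cd83* (-0.11). Between the E6 clones this fit turned *H2-DMa* (-0.0070), *H2-Oa* (-0.0061), *Ctss* (-0.088), *Ifi30* (-0.12), *Cd83* (-0.50) and *March1* (0.36), between the E7 clones *H2-DMa* (0.0047), *H2-DMb1* (-0.00068) and *March1* (0.033), and between the exons *Lgmn* (0.055).

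Leaving out a library in turn moved the uncalled values across 0 as follows. In E6.1 against parental cells *H2-DMb1* ran from -0.52 to 0.034, *Lgmn* from -0.0046 to 0.16, *March1* from -0.11 to 0.36, *Ctss* from -0.11 to 0.060 and *Cd83* from -0.13 to 0.15. In E6.2 *H2-DMa* ran from -0.29 to 0.079, *H2-DMb1* from -0.25 to 0.48, *H2-Oa* from -0.23 to 0.38, *Ctss* from -0.16 to 0.13, *Lgmn* from -0.41 to 0.013, *Cd83* from -0.53 to 0.67 and *March1* from -0.31 to 0.46. In E7.1 *H2-DMb1* ran from -0.28 to 0.30 and *Ifi30* from -0.44 to 0.25. In E7.2 *H2-DMb1* ran from -0.087 to 0.49, *Ctss* from -0.17 to 0.18 and *Cd83* from -0.12 to 1.24. Between the E6 clones *H2-DMa* ran from -0.031 to 0.34, *H2-Oa* from -0.032 to 0.57, *Ctss* from -0.11 to 0.18, *Ifi30* from -0.14 to 0.63, *Cd83* from -0.52 to 0.69 and *March1* from -0.43 to 0.33. Between the E7 clones *H2-DMa* ran from -0.098 to 0.0094, *H2-DMb1* from -0.0036 to 0.31 and *March1* from -0.47 to 0.030. Between the exons *Ctss* ran from -0.14 to 0.043, *Lgmn* from -0.092 to 0.094 and *Cd83* from -0.51 to 0.43. The smallest count of any of the 10 genes in a library was 90.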
